A study of Mus musculus with 11 samples.

Results

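The genes described here are 10 antioxidant genes, most of them known targets of the transcription factor NRF2, read in mouse microglia on Agilent microarrays. Nqo1, Gclm, Gclc, Txnrd1, Srxn1, Slc7a11, Gpx1, Gpx3, Prdx1 and Cat were found by matching the RefSeq accession of each probe to its gene symbol, and all 10 passed the filter on dim probes, among 19555 genes tested. They were read by 13 probes, 2 for Gclc, 3 for Slc7a11 and 1 for each of the others. A value is the log2 of the normalised probe intensity, averaged over a gene's probes, and is comparable between arrays but not between genes.

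The study asked how far culture moves newborn microglia from their state in the brain and whether factors of the brain niche bring them back. It comprised 11 single-colour arrays in 4 groups, all from wild-type C57BL/6N mice. A_FACS (n = 2) was microglia of adult females, and NB_FACS (n = 3) was newborn microglia from pups of both sexes. Both were sorted as cells with intermediate CD45 and high CX3CR1 and used without culture.

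NB_Control (n = 3) was newborn microglia grown for weeks in flasks, fed repeatedly with L-929 conditioned medium, shaken off and kept for 1 day in serum-containing DMEM/F12 without added factors. NB_Stim (n = 3) differed from it by human TGF-β1, IL-34 and CX3CL1, each at 100 ng/mL. The flasks held cells pooled from the brains of 2 to 3 pups, and both cultured groups had passed through the same flask culture and the same L-929 conditioned medium. Sorting and flask culture are separate isolation routes, and the flask cells were also weeks older. Isolation, time since birth and culture therefore cannot be told apart in a comparison of NB_Control with NB_FACS, nor can age and sex in a comparison of A_FACS with NB_FACS. GEO's labels do not say which replicates came from separate animals or cultures, and where they did not, the p-values measure only the spread between these samples.

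NRF2, encoded by Nfe2l2, is held in the cytoplasm and marked for degradation by KEAP1 until oxidants or electrophiles modify KEAP1. It then enters the nucleus, pairs with a small MAF protein and binds antioxidant response elements, at which BACH1 competes with it. Its targets make and recycle glutathione, run the thioredoxin and peroxiredoxin cycle, supply NADPH and detoxify quinones. In microglia these enzymes handle the peroxide that follows superoxide release by the phagocyte NADPH oxidase.

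Between 66.8% and 80.4% of probes were well above background per array. The arrays lay on 2 slides, with replicate 3 of each newborn group on slide 2 and the other 8 arrays on slide 1. The 9 tested microglial markers were above background on every array, and their summed intensity ran from 390000 to 395000 in NB_FACS, 198000 to 265000 in NB_Control, 355000 to 379000 in NB_Stim and 510000 to 530000 in A_FACS. Erythroid genes, 8 of them tested, summed to 149000 to 205000 in NB_FACS, against 354 to 369 in NB_Control, 371 to 411 in NB_Stim and 8690 to 25500 in A_FACS, and Hbb-bt was above background on no array of either cultured group. Fibroblast genes, 6 tested, summed to 772 to 1050 in NB_FACS, 12200 to 16100 in NB_Control, 7100 to 15600 in NB_Stim and 119 to 357 in A_FACS, and all 6 were above background on every cultured array. Border macrophage genes, 7 tested, summed to 11800 to 14400 in NB_FACS, 28100 to 70600 in NB_Control, 13700 to 28300 in NB_Stim and 1270 to 1560 in A_FACS, with Lyve1 above background on no NB_Control array and Cd163 on no NB_Stim array. The larger NB_Control sum came mainly from Pf4, with means of 10.42 in NB_FACS and 15.13 in NB_Control. Of the 7 genes 2 were called higher and 2 lower in that comparison (median 0.17), so the sum does not describe the list as a whole. Endothelial genes, 5 tested, summed to 4450 to 6140 in NB_FACS, 341 to 691 in NB_Control, 1590 to 1690 in NB_Stim and 5900 to 12300 in A_FACS, and choroid plexus genes, 2 tested, to 15800 to 54500, 329 to 2160, 982 to 4610 and 16600 to 123000, with Tek above background on no cultured array. The endothelial difference between the cultured groups came mainly from Flt1, with means of 7.61 in NB_Control and 10.39 in NB_Stim. It was the 1 of 5 endothelial genes called there, and the median was -0.15. Astrocyte genes, 7 tested, summed to 2370 to 2610 in NB_FACS and 3380 to 3640 in NB_Control. They summed to 2870 to 3830 in NB_Stim and 834 to 1240 in A_FACS. In that order of groups, oligodendrocyte lineage genes, 5 tested, summed to 493 to 524, 785 to 1250, 1230 to 3910 and 430 to 435. Sums of 6 neuronal genes were 4370 to 4530, 2150 to 2570, 1640 to 2990 and 3100 to 5600. Those of 4 neutrophil genes were 383 to 4630, 973 to 1210, 1660 to 2010 and 388 to 884. Several of these sums differed between groups compared below. Others overlapped, as fibroblast sums did between NB_Control and NB_Stim, and choroid plexus sums between A_FACS and NB_FACS. The part of other cell types in the group differences given next was not tested. In such bulk RNA, fewer cells of a type and less RNA per cell cannot be told apart.

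Of the 10 genes, 9 had a promoter in the RefSeq table used (GRCm38.p6, 250 bases before to 50 after a start site), and Gclc had none there. The core of the antioxidant response element (TGACNNNGC, either strand) occurred near Gclm, Txnrd1, Srxn1 and Prdx1, and near 14.0% of the 27025 genes with a promoter there. A gene counts if any of its promoters matched. The AP-1 site (TGACTCA, either strand), which can lie inside that core, occurred near Srxn1 and Prdx1, each with 2 matches, and near 5.95% of genes. The amino acid response element core (TGATGCAA, either strand) occurred near Slc7a11, with 2 matches starting 66 and 47 bases before the start site, and near 1.03% of genes. The 250 bases before the start site are shown for the 4 genes below because they hold the different kinds of match, in genes called higher in culture (Prdx1, Gclm, Slc7a11) and in one not called there (Srxn1). The matches did not separate these, since Prdx1 and Srxn1 each had 1 antioxidant response element core and 2 AP-1 sites, and Cat and Nqo1, also called higher, had no match in this window. They read 5′ to 3′ on the strand of the gene, with matched letters in capitals, at chr4:116685349-116685598 on the plus strand for Prdx1, chr2:152105274-152105523 on the plus strand for Srxn1, chr3:122245307-122245556 on the plus strand for Gclm and chr3:50443614-50443863 on the minus strand for Slc7a11.
Prdx1: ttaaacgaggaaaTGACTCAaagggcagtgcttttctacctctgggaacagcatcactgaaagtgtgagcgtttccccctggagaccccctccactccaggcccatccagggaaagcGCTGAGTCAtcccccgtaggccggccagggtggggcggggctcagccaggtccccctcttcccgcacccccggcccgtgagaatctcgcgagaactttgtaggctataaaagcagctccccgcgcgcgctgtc
Srxn1: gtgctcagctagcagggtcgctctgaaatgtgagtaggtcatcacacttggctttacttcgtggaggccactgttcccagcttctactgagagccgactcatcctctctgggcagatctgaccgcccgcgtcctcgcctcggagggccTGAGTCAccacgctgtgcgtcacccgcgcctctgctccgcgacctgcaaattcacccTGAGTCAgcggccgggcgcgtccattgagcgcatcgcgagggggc
Gclm: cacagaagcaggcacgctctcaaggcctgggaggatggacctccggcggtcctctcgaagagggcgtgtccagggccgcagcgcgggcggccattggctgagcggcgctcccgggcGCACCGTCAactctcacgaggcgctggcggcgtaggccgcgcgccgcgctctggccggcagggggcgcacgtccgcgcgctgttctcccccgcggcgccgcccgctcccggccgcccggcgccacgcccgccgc
Slc7a11: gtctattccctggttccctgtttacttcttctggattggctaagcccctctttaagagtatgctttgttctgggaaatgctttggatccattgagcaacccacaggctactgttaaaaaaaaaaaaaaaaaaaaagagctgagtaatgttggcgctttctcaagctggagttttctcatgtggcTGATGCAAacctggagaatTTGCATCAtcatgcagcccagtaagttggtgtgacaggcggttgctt
In Prdx1 the second capital run is an antioxidant response element core and an AP-1 site that overlap, whereas the first run is an AP-1 site alone. Srxn1 showed 2 AP-1 sites in this window, and its match to the antioxidant response element core began 29 bases after the start site, outside the letters shown. Only TGACNNNGC was searched, so variants of that core, also ones that hold an AP-1 site, were not counted. Gclm held 1 core, and Slc7a11 held the pair of amino acid response element cores. A match describes letters only and was not tested as a binding site.

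Cultured newborn microglia (NB_Control) had higher levels of 5 of the 10 genes than sorted ones (NB_FACS), namely Nqo1, Gclm, Slc7a11, Prdx1 and Cat, and none was called lower. Culture difference stands below for NB_Control minus NB_FACS, where isolation and time since birth differ as well. Rises and falls are differences between groups of separate samples. Calls were made by limma's moderated test at an adjusted p under 0.05 (two-sided, Benjamini-Hochberg over all genes tested), and 29.7% of all genes tested were called between NB_Control and NB_FACS, 15.8% as higher and 13.9% as lower. The median log2 difference of the 10 genes was 1.31, against 0.09 over all genes. With probes required above background on all arrays, which leaves out Nqo1, 4 of 9 were called higher and the median was 0.35. NB_Control and NB_FACS did not overlap for 6 of the 10, against 44.2% of all genes, the sixth being Gpx3.

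**Figure D1:**
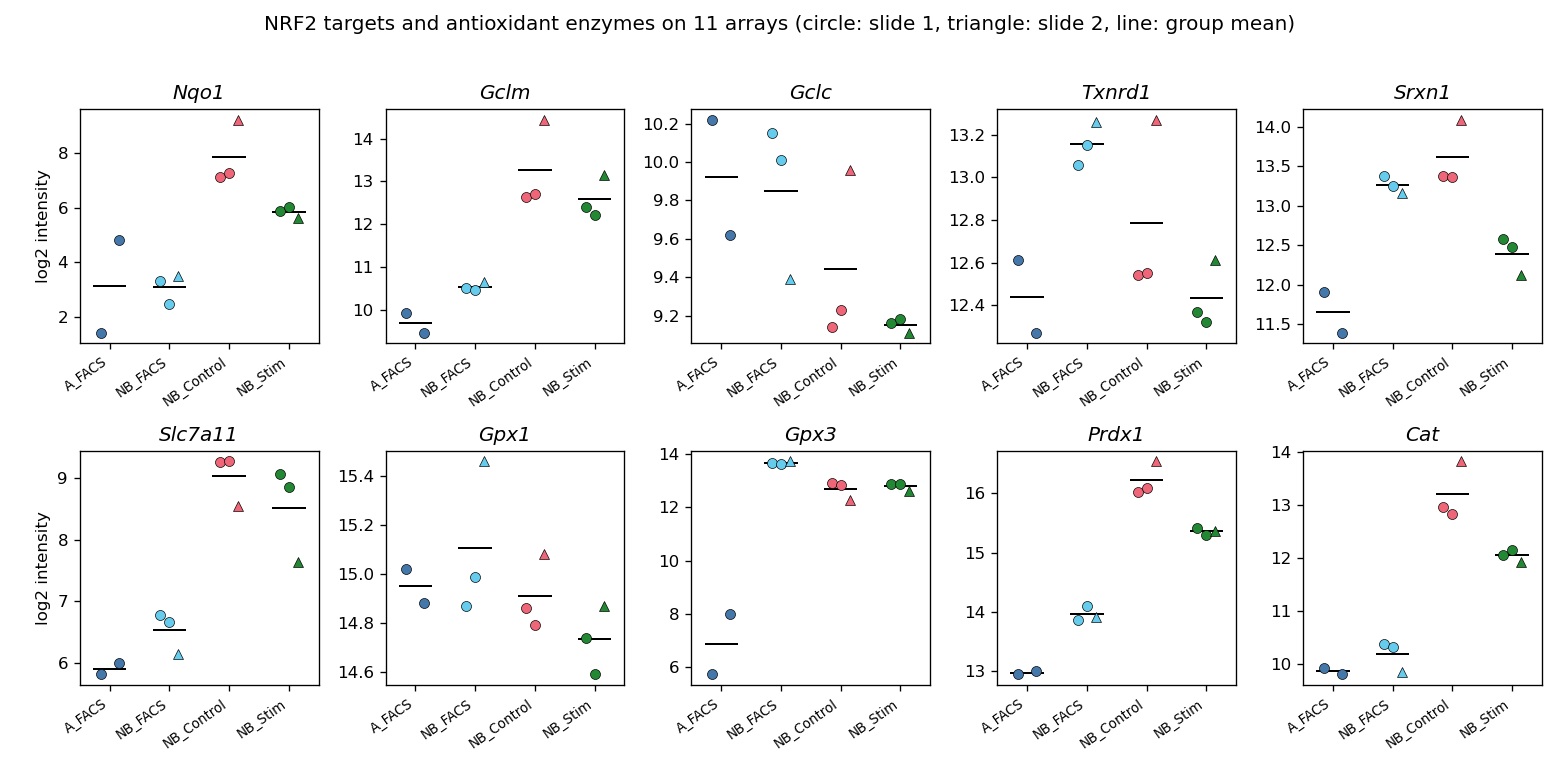
Log2 normalised intensity (vertical axis, scaled separately in each panel) of the 10 genes on each of the 11 arrays, by group. Circles are arrays of slide 1, triangles of slide 2, and lines group means. Prdx1, Cat, Gclm, Slc7a11 and Nqo1 sat higher on all 6 cultured arrays than on all sorted newborn arrays, and Gpx3 was low on both adult arrays, at 5.73 and 8.01.

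Glutathione is made in steps that begin with cystine import and the joining of cysteine to glutamate. Slc7a11, the cystine-importing chain of the exchanger system xc-, read 6.78, 6.67 and 6.14 on the 3 NB_FACS arrays, 9.26, 9.27 and 8.55 in NB_Control, 9.07, 8.85 and 7.64 in NB_Stim and 5.81 and 5.99 in A_FACS. All 6 cultured arrays lay above all 5 sorted ones, and NB_Control exceeded NB_FACS by 2.50 log2 units (SE 0.364, 5.64-fold, adjusted p = 0.00063). Gclm, the modifier subunit of glutamate-cysteine ligase, read 10.52, 10.46 and 10.66 in NB_FACS, 12.65, 12.71 and 14.44 in NB_Control, 12.41, 12.22 and 13.14 in NB_Stim and 9.94 and 9.47 in A_FACS. Here too the cultured arrays lay above every sorted array, replicate 3 of NB_Control being the highest of the 11, and the culture difference was 2.72 (SE 0.441, 6.57-fold, adjusted p = 0.0012).

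Gclc, the catalytic subunit of the same ligase, behaved otherwise. It read 10.15, 10.01 and 9.39 in NB_FACS, 9.14, 9.23 and 9.96 in NB_Control, 9.16, 9.18 and 9.11 in NB_Stim and 10.22 and 9.62 in A_FACS. The NB_Control and NB_FACS arrays overlapped, and the difference of -0.41 (95% interval -1.01 to 0.20, adjusted p = 0.309) was -0.90 on slide 1 and 0.57 on slide 2. The 2 subunits of glutamate-cysteine ligase therefore read differently in culture, with the modifier called higher and the catalytic subunit not called, although the contrast between them was not tested.

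The 2 probes of Gclc gave culture differences of -0.43 and -0.38, whereas those of Slc7a11 differed in size. Its 2 probes above background on all 11 arrays gave 1.48 and 3.51, and its remaining probe was above background on none and did not enter the mean. The more responsive probe read 6.50, 6.79 and 7.07 in NB_FACS and 10.57, 10.57 and 9.75 in NB_Control. The other read 7.06, 6.55 and 5.21 in NB_FACS and 7.94, 7.97 and 7.35 in NB_Control, so that both probes separated the groups, and the size of the Slc7a11 difference depended on the probe read.

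**Figure D2:**
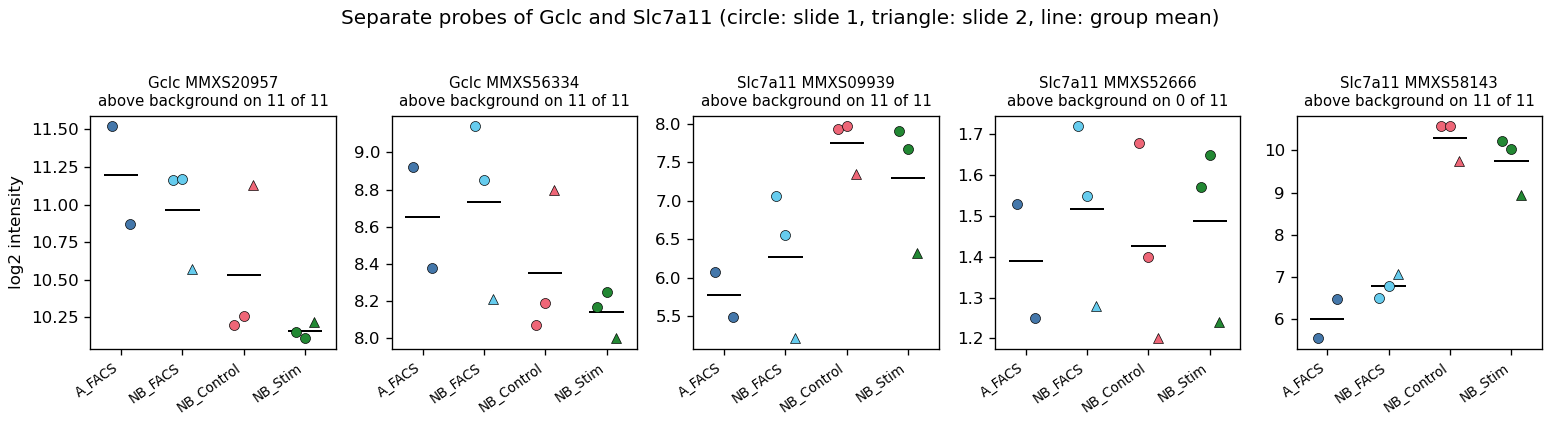
Log2 normalised intensity (vertical axis, scaled separately in each panel) of each probe of Gclc and Slc7a11 by group, with circles for slide 1, triangles for slide 2 and lines for group means. The 2 Slc7a11 probes above background on 11 of 11 arrays read 1.48 and 3.51 higher in NB_Control than in NB_FACS, and the remaining probe, above background on 0 of 11, read at most 1.72.

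In the thioredoxin and peroxiredoxin cycle, Prdx1 had the smallest standard error in culture. Prdx1, a peroxiredoxin that reduces hydrogen peroxide, read 13.86, 14.09 and 13.91 in NB_FACS, 16.03, 16.09 and 16.54 in NB_Control, 15.42, 15.30 and 15.37 in NB_Stim and 12.94 and 12.99 in A_FACS. The 4 groups did not overlap at all and stood in the order NB_Control, NB_Stim, NB_FACS and A_FACS, with NB_Control above NB_FACS by 2.27 (SE 0.153, 4.82-fold, adjusted p = 6.17e-06). Srxn1, the sulfiredoxin that restores overoxidised peroxiredoxins, read 13.38, 13.25 and 13.16 in NB_FACS, 13.38, 13.37 and 14.09 in NB_Control, 12.58, 12.48 and 12.12 in NB_Stim and 11.91 and 11.39 in A_FACS. NB_Control and NB_FACS overlapped, and their difference of 0.35 (95% interval -0.17 to 0.86, adjusted p = 0.303) was 0.06 on slide 1 and 0.92 on slide 2.

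Txnrd1, the cytosolic thioredoxin reductase and a selenoprotein, read 13.06, 13.15 and 13.26 in NB_FACS, 12.54, 12.55 and 13.27 in NB_Control, 12.37, 12.32 and 12.61 in NB_Stim and 12.61 and 12.27 in A_FACS. NB_Control replicate 3 read as high as the sorted newborn arrays while replicates 1 and 2 lay below them, and the difference of -0.37 (95% interval -0.83 to 0.10, adjusted p = 0.225) was not called. Without that array it was -0.61 and was called lower.

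Nqo1, the quinone reductase widely used as a readout of NRF2, had the least precise culture difference of the 10 genes. It read 3.31, 2.47 and 3.48 in NB_FACS, 7.11, 7.25 and 9.21 in NB_Control, 5.88, 6.03 and 5.63 in NB_Stim and 1.42 and 4.81 in A_FACS. It was well above background on every cultured array but on only 1 of the 3 NB_FACS and 1 of the 2 A_FACS arrays, so it passed the filter through the cultured groups alone and its level in sorted cells lies near background. The fitted difference between NB_Control and NB_FACS was 4.77 (SE 0.8, adjusted p = 0.00144), with 4.30 on slide 1 and 5.73 on slide 2. Under normexp background correction it was 2.14, with the same call, against 2.99 for Cat, so neither the size nor its rank among the 10 genes is settled.

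Among the enzymes that act directly on peroxide, Cat differed from the glutathione peroxidases. Cat, the peroxisomal catalase, read 10.39, 10.32 and 9.86 in NB_FACS, 12.97, 12.84 and 13.83 in NB_Control, 12.07, 12.16 and 11.94 in NB_Stim and 9.93 and 9.81 in A_FACS. Every cultured array exceeded every sorted array, and NB_Control lay above NB_FACS by 3.03 (SE 0.252, 8.14-fold, adjusted p = 2.13e-05). Gpx1, the cytosolic glutathione peroxidase, stayed within 14.59 and 15.46 on all 11 arrays, with overlapping groups and a culture difference of -0.20 (95% interval -0.59 to 0.19, adjusted p = 0.451).

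Gpx3, the secreted glutathione peroxidase, read 13.65, 13.61 and 13.72 in NB_FACS, 12.90, 12.83 and 12.27 in NB_Control, 12.86, 12.88 and 12.61 in NB_Stim and 5.73 and 8.01 in A_FACS. All cultured arrays lay below the sorted newborn arrays, but the culture difference of -0.99 (95% interval -2.02 to 0.03) was not called (adjusted p = 0.14). The spread of its adult arrays enters that interval, and the difference was called lower with only the groups compared in the fit. It was also called lower when either adult array was left out.

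The 5 called genes were higher in culture on both slides, by 2.18 and 3.78 for Gclm, 2.54 and 2.41 for Slc7a11, 2.09 and 2.63 for Prdx1 and 2.55 and 3.97 for Cat on slides 1 and 2. All 5 remained called with slide as a block and with any 1 array left out. NB_Control replicate 3 was the highest NB_Control array for 8 of the 10 genes, by up to 2.03 over the mean of the other two (Nqo1).

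**Figure D3:**
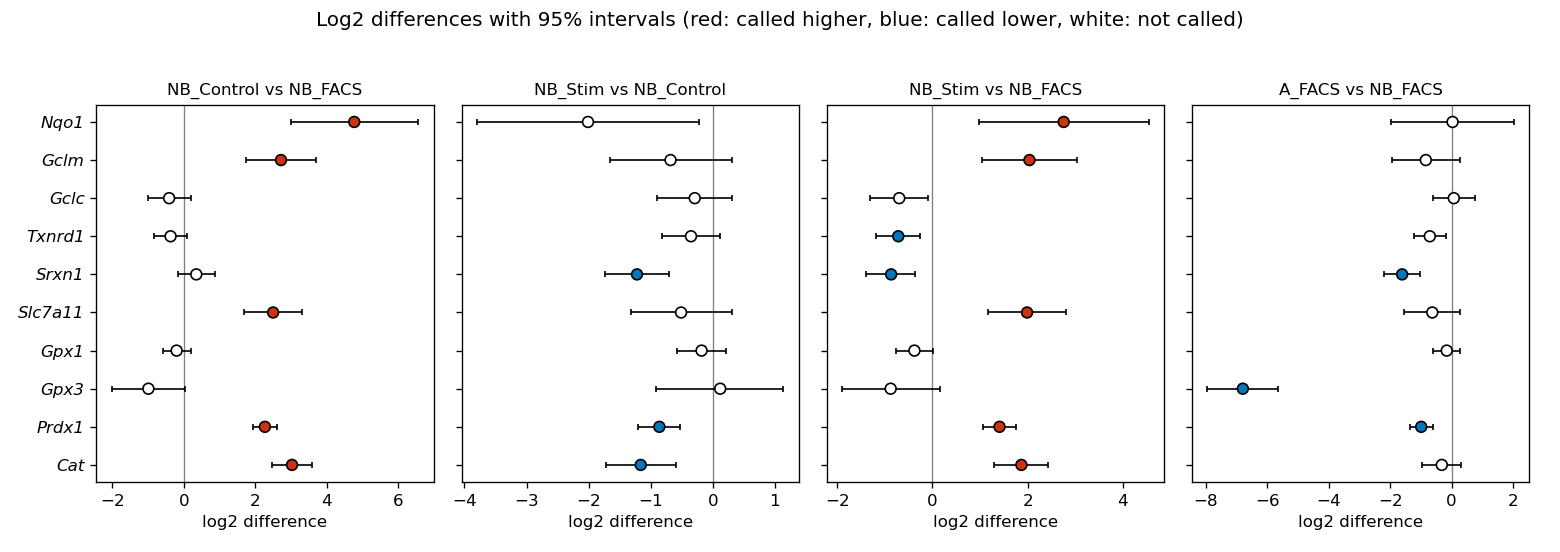
Log2 differences (horizontal axis, first named group minus second, scaled separately in each panel) of the 10 genes in the 4 main comparisons, with 95% intervals from limma as bars. Red points were called higher, blue points lower and white points were not called at an adjusted p under 0.05. In culture 5 genes were called higher, and with the added factors 3 were called lower than in culture alone.

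The added TGF-β1, IL-34 and CX3CL1 were accompanied by lower Srxn1, Prdx1 and Cat, and none of the 10 genes was called higher. Between NB_Stim and NB_Control 3.41% of all genes tested were called, 2% as lower and 1.4% as higher. Srxn1 fell by 1.22 (SE 0.23, 2.33-fold, adjusted p = 0.0197), Prdx1 fell by 0.86 (SE 0.153, 1.81-fold, adjusted p = 0.0148) and Cat fell by 1.16 (SE 0.252, 2.23-fold, adjusted p = 0.038). For each of them all 3 NB_Stim arrays lay below all 3 NB_Control arrays. The median of the 10 differences was -0.59, against 0.00 over all genes.

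Nqo1 also separated these groups, with a difference of -2.01 (95% interval -3.80 to -0.22), but it was not called (adjusted p = 0.261). Gclm differed by -0.68 (adjusted p = 0.562), Slc7a11 by -0.51 (adjusted p = 0.607), Txnrd1 by -0.35 (adjusted p = 0.502), Gclc by -0.29 (adjusted p = 0.722) and Gpx1 by -0.18 (adjusted p = 0.749), and the arrays of both groups overlapped for these 5. Gpx3 differed by 0.12 (95% interval -0.91 to 1.14, adjusted p = 0.957) and by -0.15 under 75th percentile scaling. The arrays did not overlap for 4 of the 10 genes, against 24% of all genes.

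Both slides gave the lower values, by -0.85 and -1.97 for Srxn1, -0.71 and -1.17 for Prdx1 and -0.79 and -1.89 for Cat on slides 1 and 2, where slide 2 compares 1 array with 1. The calls were not stable, since none of the 3 was called without NB_Stim replicate 1 or without NB_Stim replicate 2, 1 (Prdx1) was called without NB_Stim replicate 3, and none was called when the fit held only the groups compared. Cat in particular was lost when any of 9 of the 11 arrays was left out. Pairing the arrays by replicate number left the 3 calls in place, whereas over all genes it raised the count from 666 to 1193.

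Set against sorted newborn cells, the cells given the 3 factors still showed 5 genes higher and 2 lower, where 31.1% of all genes were called, 16% as higher and 15.1% as lower. The median of the 10 differences was 0.52, against 0.11 over all genes. With probes required above background on all arrays, which leaves out Nqo1, 4 of 9 were higher, 2 were lower and the median was -0.38. NB_Control and NB_Stim are both compared here with the same NB_FACS arrays. Prdx1 was 13.95 ± 0.122 in NB_FACS and 15.36 ± 0.0594 in NB_Stim (SD, n = 3 each), a difference of 1.41 (adjusted p = 0.000105), and Cat was higher by 1.87 (adjusted p = 0.000406). Gclm was higher by 2.04 (adjusted p = 0.00591), Slc7a11 by 1.99 (adjusted p = 0.00239) and Nqo1 by 2.76 (adjusted p = 0.025). These 5 were the genes called higher in NB_Control, with smaller differences for each in NB_Stim. The 2 Slc7a11 probes above background gave 1.02 and 2.95 here. For the less responsive probe the arrays overlapped, at 7.91, 7.67 and 6.32 in NB_Stim against 7.06, 6.55 and 5.21 in NB_FACS.

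Of the 10 genes, 2 were lower in NB_Stim than in sorted newborn cells. Srxn1 was lower than in NB_FACS by -0.87 (adjusted p = 0.0164) and Txnrd1 by -0.72 (adjusted p = 0.024), without overlap of the arrays, as for 43.5% of all genes. Gclc differed by -0.70 (adjusted p = 0.0785), Gpx3 by -0.88 (adjusted p = 0.182) and Gpx1 by -0.38 (adjusted p = 0.135), none of them called. With arrays paired by replicate number Gpx1 was called lower as well (adjusted p = 0.0337). Nqo1 came to 0.78 under normexp and was then not called (adjusted p = 0.139), nor was it by Tukey's test or with cultured replicates 1 and 2 averaged. The call of Srxn1 was lost without NB_FACS replicate 1, that of Nqo1 without NB_FACS replicate 1 or 2 or NB_Stim replicate 1 or 2, and that of Txnrd1 without NB_FACS replicate 2 or 3 or NB_Stim replicate 1 or 2.

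Adult and newborn sorted microglia differed in 3 of the 10 genes, all lower in adults, where 22.7% of all genes tested were called, 12.9% as lower and 9.75% as higher. The share of 30% called lies near that of all genes, so the count is not read as a trait of the 10 genes. Gpx3 was lower by -6.79 (SE 0.512, adjusted p = 4.09e-05), a size that came to -5.65 without A_FACS replicate 1 and -7.93 without A_FACS replicate 2. Srxn1 fell by 1.61 (SE 0.257, 3.06-fold, adjusted p = 0.00187) and Prdx1 fell by 0.99 (SE 0.171, 1.99-fold, adjusted p = 0.00288), so that the sulfiredoxin and its peroxiredoxin substrate were both lower in adults. Neither overlapped between ages, and 6 of the 10 genes did not, a share near the 51.2% of all genes.

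Of the others, Txnrd1 differed by -0.71 (adjusted p = 0.0528), Gclm by -0.84 (adjusted p = 0.262), Slc7a11 by -0.63 (adjusted p = 0.311), Cat by -0.32 (adjusted p = 0.471) and Gpx1 by -0.16 (adjusted p = 0.609). Gclc differed by 0.07 (adjusted p = 0.901) and Nqo1 by 0.03 (95% interval -1.97 to 2.03, adjusted p = 0.987), with adult values of 1.42 and 4.81. Both adult arrays lay on slide 1. With slide as a block Txnrd1 (-0.59, adjusted p = 0.0271) and Slc7a11 (-0.92, adjusted p = 0.00628) were called lower too, and on slide 1 alone, with 2 arrays per group, 7 of the 10 were.

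Against the cultured groups, 7 of the 10 genes were lower in adult microglia, where 40.8% of genes were called against NB_Control (23.2% as lower and 17.7% as higher) and 40.2% against NB_Stim (22.8% as lower and 17.5% as higher). The arrays did not overlap for these 7 against NB_Control, where 66.4% of all genes did not, and for these and Gclc and Gpx1 against NB_Stim, where 63% did not. They were the same 7 genes in both comparisons, which share the adult arrays. The differences from NB_Control were -4.75 for Nqo1, -3.56 for Gclm, -3.13 for Slc7a11, -1.96 for Srxn1, -5.80 for Gpx3, -3.26 for Prdx1 and -3.34 for Cat. That of Nqo1 is uncertain in size, because 1 of its 2 adult values was not well above background. Nqo1 also passed the filter through the cultured groups alone. Gclc (0.48), Txnrd1 (-0.34) and Gpx1 (0.04) were not called.

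The rest of the pathway was read from 6 gene lists. Regulators of NRF2, 9 genes, had 6 called lower and none higher in NB_Control against NB_FACS (median -0.62, against 0.09 over all genes). Over all genes 29.7% were called in this comparison, 15.8% higher and 13.9% lower, against 66.7% of the regulators, 62.5% of the further NRF2 target genes, 58.8% of the glutathione and thioredoxin enzymes, 55.6% of the peroxidases and superoxide dismutases, 55.6% of the NADPH oxidase genes and 33.3% of the selenoprotein genes, the last being close to the share over all genes. The small MAF partners Maff (-2.51, adjusted p = 9.51e-05) and Mafk (-1.58, adjusted p = 0.00165) and the competitor Bach1 (-1.18, adjusted p = 0.000109) showed the largest falls. Nfe2l2 itself, which encodes NRF2 and is named outside the rule of the 3 largest after its values were seen, read 12.95, 12.83 and 13.19 in NB_FACS and 12.26, 12.23 and 11.85 in NB_Control (-0.88, adjusted p = 0.00229). The transcript of the factor was thus lower on every cultured control array while 5 of the 10 genes described here were higher.

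Further NRF2 target genes rose in 10 of 16 cases and fell in none (median 1.51). The largest rises were Me1, malic enzyme that supplies NADPH (4.04, 16.5-fold, adjusted p = 0.000118), Abcc1, an exporter of glutathione conjugates (3.57, 11.9-fold, adjusted p = 2.53e-06), and Esd, S-formylglutathione hydrolase (2.83, 7.1-fold, adjusted p = 2.49e-06). Glutathione and thioredoxin enzymes rose in 9 and fell in 1 of 17. Msrb1, a methionine sulfoxide reductase (2.73, adjusted p = 6.31e-05), Gsr, glutathione reductase (1.95, adjusted p = 1.86e-05), and Txn1, thioredoxin (1.39, adjusted p = 0.000149), rose most. Slc3a2, the heavy chain that pairs with Slc7a11 and with other transporters, was the gene that fell (-0.90, adjusted p = 0.00339).

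Peroxidases and superoxide dismutases rose in 5 of 9 and fell in none, led by the extracellular Sod3 (2.35, adjusted p = 0.00621), the peroxiredoxin Prdx5 (2.09, adjusted p = 5.34e-05) and the mitochondrial Sod2 (1.02, adjusted p = 0.00317). Selenoprotein genes and their synthesis, 15 genes, had 2 called higher and 3 lower (median -0.17), a share near that of all genes. Selenom (2.27) and Sephs2, which makes the selenium donor (1.68), rose, whereas Lrp8, a selenoprotein P receptor (-1.94), Selenoh (-1.85) and Eefsec, the selenocysteine elongation factor (-0.82), fell. Of 9 NADPH oxidase genes, 3 rose and 2 fell. Cybb, the catalytic gp91phox chain, rose 24.6-fold (4.62, adjusted p = 0.000644) alongside Ncf4 (1.12) and Cyba (0.58), while Rac2 (-0.85) and Ncf1 (-0.71) fell.

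**Figure D4:**
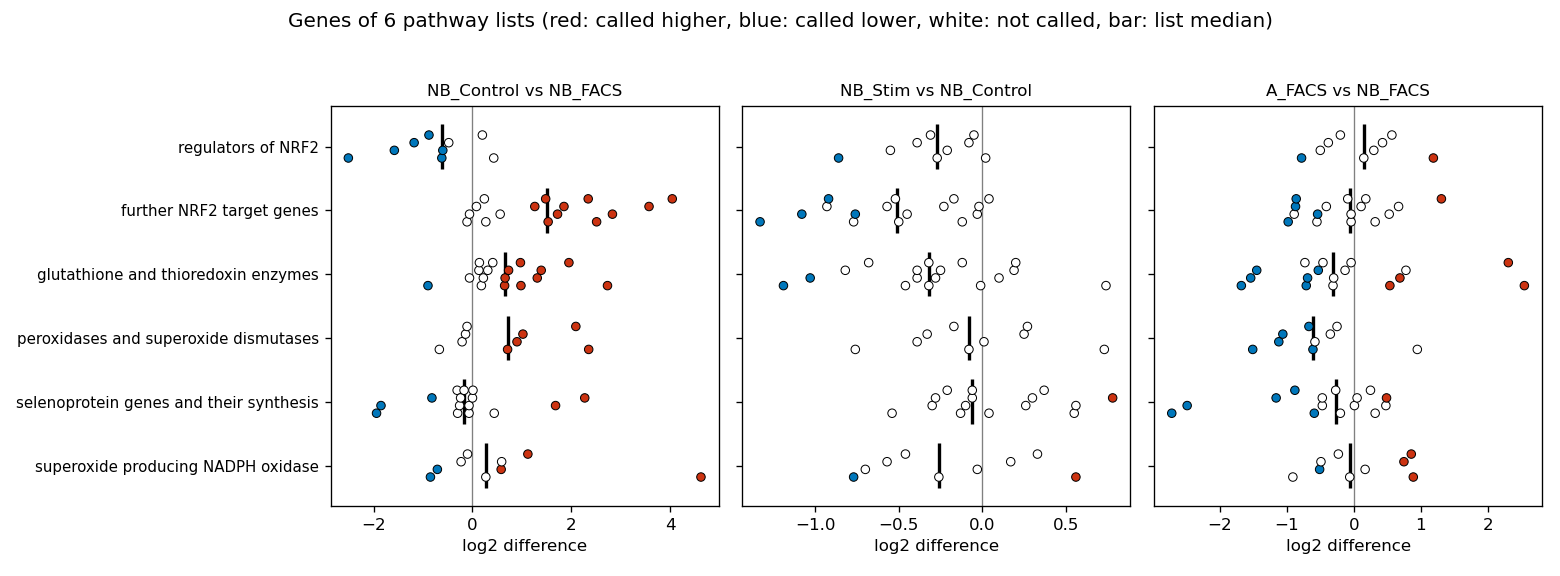
Log2 differences (horizontal axis, first named group minus second, scaled separately in each panel) of the genes in 6 pathway lists in 3 comparisons. Each point is a gene, red if called higher, blue if called lower and white if not called, and bars mark list medians. In culture the further NRF2 target genes lay to the right, with a median of 1.51, and the regulators to the left, with a median of -0.62.

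With the 3 factors, 4 of the 16 further target genes were lower than in NB_Control and none was higher (median -0.51, against 0.00 over all genes), where 3.41% of all genes were called. G6pdx, the first enzyme of the pentose phosphate pathway (-1.33, adjusted p = 0.000396), Abcc1 (-1.08, adjusted p = 0.0204) and Pgd, a later NADPH-producing enzyme of that pathway (-0.92, adjusted p = 0.00489), fell most. Gsr (-1.19, adjusted p = 0.00338) and the glutathione transferase Gstk1 (-1.03, adjusted p = 0.00421) were the 2 of 17 glutathione and thioredoxin enzymes called, both lower. Of the regulators 1 of 9 was called, Sqstm1, which encodes the KEAP1-binding autophagy receptor p62 and is itself induced by NRF2 (-0.86, adjusted p = 0.0161). No regulator was called without any 1 of NB_Control replicates 1, 2 and 3 or NB_Stim replicates 1 and 2, with cultured replicates 1 and 2 averaged, or by Tukey's test with Benjamini-Hochberg adjustment.

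None of the 9 peroxidases and superoxide dismutases was called by limma between NB_Stim and NB_Control, and over the alternatives between 0 and 1 were. Sephs2 was the 1 of 15 selenoprotein genes called, higher by 0.78 (adjusted p = 0.0419). Among the NADPH oxidase genes Ncf1 was higher by 0.56 (adjusted p = 0.0369) and Ncf4 lower by -0.77 (adjusted p = 0.00885). Across the alternatives between 1 and 7 of the further target genes were called lower and none higher.

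Relative to NB_FACS, where 31.1% of all genes were called, NB_Stim had 7 of 9 regulators lower and none higher, led by Maff (-2.59), Mafk (-1.85) and Sqstm1 (-1.46). Further target genes were higher in 8 of 16 and lower in none, led by Me1 (3.93), Abcc1 (2.49) and Esd (2.07). Glutathione and thioredoxin enzymes had 8 higher and 3 lower of 17, with Msrb1 at 3.47 and Txnip, the thioredoxin inhibitor, at -0.88. The remaining lists had 3 higher and 1 lower of 9 peroxidases and superoxide dismutases, 2 higher and 4 lower of 15 selenoprotein genes, and 1 higher and 2 lower of 9 NADPH oxidase genes, with Cybb at 4.36, and the shares of 40% and 33.3% called in the last 2 lists lie close to that of all genes.

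In adults, glutathione and thioredoxin enzymes had 6 lower and 4 higher of 17 against NB_FACS, where 22.7% of all genes were called. Gsr (-1.68, adjusted p = 0.000206), Txn1 (-1.54, adjusted p = 0.000339) and Mgst3, a microsomal glutathione transferase (-1.45, adjusted p = 0.00132), fell most, and Txnip (2.55, adjusted p = 0.000117), Ggt5, a gamma-glutamyltransferase (2.31, adjusted p = 0.0105), and Gstk1 (0.69, adjusted p = 0.0129) rose most. The thioredoxin inhibitor was therefore higher in adults and thioredoxin itself lower. Peroxidases and superoxide dismutases were lower in 5 of 9 and higher in none, with Prdx4 (-1.51), Prdx3 (-1.12) and Sod2 (-1.06) the largest. These counts moved with the setting, from 5 to 13 called for the former list and from 1 to 8 for the latter over the alternatives, and without A_FACS replicate 1 the latter had 2 lower and 1 higher.

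Further NRF2 target genes in adults had 4 lower and 1 higher of 16, with Tkt, transketolase (-0.98), Esd (-0.87) and Blvrb, biliverdin reductase B (-0.86), lower and Abcc1 (1.31) higher. That share of 31.2% stands beside 22.7% of all genes, and without A_FACS replicate 1 the list had 1 lower and 2 higher, so no direction is given for it. Regulators had Mafk higher (1.19) and Bach1 lower (-0.78) of 9, a share of 22.2% that is no more than that of all genes. Over the alternatives 0 to 2 regulators were called higher and 1 to 3 lower. Selenoprotein genes had 5 lower and 1 higher of 15, with Selenoh (-2.72), Lrp8 (-2.49) and Selenow (-1.16) falling most and Selenos (0.49) rising, and 1 to 8 of them were called over the alternatives, 2 without A_FACS replicate 1. Among NADPH oxidase genes, Ncf4 (0.89) and Ncf1 (0.75) were higher and Cyba lower (-0.51).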

How the data were processed

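RNA was hybridised to single-colour Agilent arrays and scanned by the authors, whose deposited probe intensity values come from Agilent Feature Extraction 11.5.1.1, per the file headers. The deposited value table held the same numbers (0 values differed at a relative tolerance of 1e-05). The methods name quantile normalisation.

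Here the processed signal was log2 transformed and quantile normalised with limma 3.58.1 in R 4.3.3. Control spots and 138 probes with outlier flags were left out. A probe was kept if some group had it well above background on all its arrays (44727 of 60037 probes), repeated spots were averaged, and a gene was the mean of its probes. Of all probes, 60.4% were named through RefSeq accessions. Gstm1, Gss, Ggt1, Gpx8 and Prdx2 were not analysed here. Each group was given 1 mean over all 11 arrays (7 residual degrees of freedom), each comparison was tested by limma's moderated test, and p-values were adjusted by Benjamini-Hochberg over 19555 genes. No array gives a depth, and the number of arrays limits the precision. No spot was saturated. The script was tested on simulated data with known changes.

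The genes, lists and markers were chosen with earlier results of these data known. All 10 genes were named in every main comparison, and of each pathway list at most the 3 largest rises and 3 largest falls among called genes, except 1 gene that is not reported here. Among newborn groups, arrays of one replicate number deviated together from their group means (correlations of 0.112 to 0.489 over genes for every pair). So did arrays of different number on slide 1 (0.185 to 0.364), so these correlations do not tell pairing by number from a shared slide. The fit with a replicate block was set beside the results as an alternative. Pairing by number comes from the data, not from the labels, and replicate 3 is also slide 2. Alternatives covered scaling, background correction, the probe filter, the choice of probe, the slide and replicate block, the arrays in the fit, Tukey's test and leaving out each array. Figures were drawn with matplotlib 3.10.9 in Python 3.11.15, and promoter windows came from RefSeq GRCm38.p6.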

Additional observations from a re-analysis of the deposited data

How the results depend on the processing

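With the replicate block, calls among the 10 genes stayed at 5 between NB_Control and NB_FACS and at 3 between NB_Stim and NB_Control. They came to 8 between NB_Stim and NB_FACS, where Gpx1 was added, and to 5 between A_FACS and NB_FACS, where Txnrd1 and Slc7a11 were added. The replicate block changed no other call of the 10 genes in these 4 comparisons. Adult arrays did not pair by number (correlations of -0.0695 to 0.168).

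Between NB_Stim and NB_Control 0 of the 10 genes were called with only the groups compared, 0 by Tukey's test with Benjamini-Hochberg adjustment and 0 with cultured replicates 1 and 2 averaged, and 0 to 3 with 1 array left out. Cat was lost under 13 of 23 alternatives, Srxn1 under 7 and Prdx1 under 5. Over all genes this comparison had 1009 calls with normexp, 1476 with the slide block, 1193 with the replicate block, 1590 by Tukey's test, 183 by Tukey's test with Benjamini-Hochberg adjustment, 118 with the averaged replicates, 304 to 703 with 1 array left out and 1032 on slide 1 arrays only, an alternative chosen after seeing the data. By Tukey's test with Benjamini-Hochberg adjustment, genes called were 3547 between NB_Control and NB_FACS, 3620 between NB_Stim and NB_FACS (3 of the 10 genes) and 2014 between A_FACS and NB_FACS. A_FACS against NB_FACS had 2923 calls with only the groups compared and 2456 to 5124 with 1 array left out (the lowest without A_FACS replicate 1), and of the 10 genes 5 with the slide block and 7 on slide 1 arrays only.

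No called difference reversed. Of those not called, Gpx3 between NB_Stim and NB_Control was -0.15 with 75th percentile scaling and between -0.08 (without NB_Control replicate 3) and 0.23 with 1 array left out. Between A_FACS and NB_FACS, Nqo1 ran from -1.66 (without A_FACS replicate 2) to 1.72 with 1 array left out and was -0.28 without NB_FACS replicate 2. Gclc was -0.02 with 75th percentile scaling, -0.23 without A_FACS replicate 1 to 0.37 without A_FACS replicate 2, -0.16 without NB_FACS replicate 3 and -0.16 on slide 1 arrays only, and Gpx1 was 0.01 without NB_FACS replicate 3 and 0.01 on slide 1 arrays only. The cause was not tested. Nqo1 had no value where probes had to be above background on all arrays. Its level in sorted cells is limited by signal over background.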
